A study of Mus musculus with 5 samples.

Results

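Among 4 mouse fibroblast lines that carried the same mutant histone transgene, the line numbered 6 in the labels was set against lines 3, 15 and 18. Genes were taken where the mean over these 4 lines was at least 5 RPKM (reads scaled to transcript length and library size) and the gene lay on an autosome. This left 5977 of 14454 listed gene symbols, and line 6 lay outside the range of the other 3 lines for 3210 of them (53.7%). Counted in the same way, the share was 47.4% for line 3, 49.4% for line 15 and 49.5% for line 18. The series holds 5 lines of NIH/3T3, an established line of mouse embryonic fibroblasts, into which human histone H2A joined to the fluorescent protein EGFP had been integrated. The 4 mutant lines expressed EGFP-H2A T120D, in which the threonine of the histone's C-terminal tail is replaced by an aspartate, and 1 further line, wt, expressed EGFP-H2A wild-type. All 5 were grown in the same medium with 10% fetal calf serum and 10 µg/ml gentamicin, and libraries were made with a stranded mRNA kit and read on a MiSeq instrument. The promoter of the transgene, its level in each line and whether a line came from 1 cell clone are not given in the labels. Line 6 is 1 sample with 1 library. The line was selected on these values: line 6 was singled out because its RPKM set it apart from the other T120D lines, and genes were chosen by their distance from the range, so all differences from lines 3, 15 and 18 are descriptions without a test.

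Histone H2A packages DNA in the nucleosome, and phosphorylation of the threonine in its tail by mitotic and other kinases has been linked to centromere function and to transcription. An aspartate at that position is often used as a stand-in for the phosphorylated residue. NIH/3T3 cells are known to be aneuploid. Immortalised fibroblasts of this kind secrete matrix proteins, chemokines and proliferins, and their contractile and secretory genes respond to serum and to growth state.

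The libraries of the 4 T120D lines were alike in size. Depth, estimated from the values that 1 read takes in genes with a single transcript, was 2710000 reads in line 6, 2520000 to 2660000 in the other T120D lines and 2720000 in wt. For a transcript 2000 bases long, 1 RPKM then stands for 5.04 to 5.44 reads. Of the markers looked for, 3 of 7 epithelial, 3 of 5 endothelial and 2 of 6 skeletal muscle markers were among the listed genes. These were at most 0.683 RPKM in any line. Of 7 macrophage markers 5 were listed and Cd14 was the highest, at up to 5.32 RPKM. Of 6 adipocyte markers 4 were listed, with Lpl at up to 6.59, and of 6 neural markers 5, with Map2 at up to 3.83. The summed macrophage markers came to 4.36 RPKM in line 6 and 2.88 to 7.27 in the other T120D lines. The summed fibroblast markers came to 2681 in line 6, 2317 to 2417 in the other T120D lines and 3070 in wt. Of the 9 fibroblast markers listed S100a4 was the highest, at up to 1363 RPKM.

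Values were compared as log2(RPKM + 1). The gap of a gene is the distance of line 6 from the nearest of lines 3, 15 and 18 on that scale, positive where line 6 was the highest of the 4 and negative where it was the lowest. Line 6 was the highest for 1500 genes (25.1%) and the lowest for 1710 (28.6%). The same count for each of the other lines gave 2832 genes outside the range of its 3 counterparts for line 3 (47.4%), 2950 for line 15 (49.4%) and 2961 for line 18 (49.5%). Every gene has a highest and a lowest line, so each of the 4 lines had a large share at an extreme. Lines 3, 15 and 18 were the highest for 24.3%, 28.2% and 22.4% of genes and the lowest for 23.1%, 21.2% and 27.1%. Line 6 had the most genes at an extreme by a small margin, was the highest less often than line 15, and most of its gaps were small. In line 6, 14 genes lay at least 1.5-fold above the range (0.234% of the 5977) and 23 at least 1.5-fold below it (0.385%). The counts were 10 above and 19 below in line 3, 6 and 13 in line 15, and 4 and 14 in line 18. At 2-fold, line 6 had 1 gene above (0.0167%) and 5 below (0.0837%). Pairs that include line 6 differed by at least 1.5-fold for 218 to 244 genes, and pairs among the other 3 lines for 168 to 191. Of the genes just past the 1.5-fold limit, Slc16a13 had a gap of 0.59 and Psmg4 one of -0.59, and of those just short of it 0610009B22Rik had 0.58 and Adm -0.58.

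The 10 widest gaps on each side, and the 8 widest on each side among genes whose T120D mean reached 20 RPKM, gave 32 genes, 15 higher and 17 lower in line 6.

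**Figure D1:**
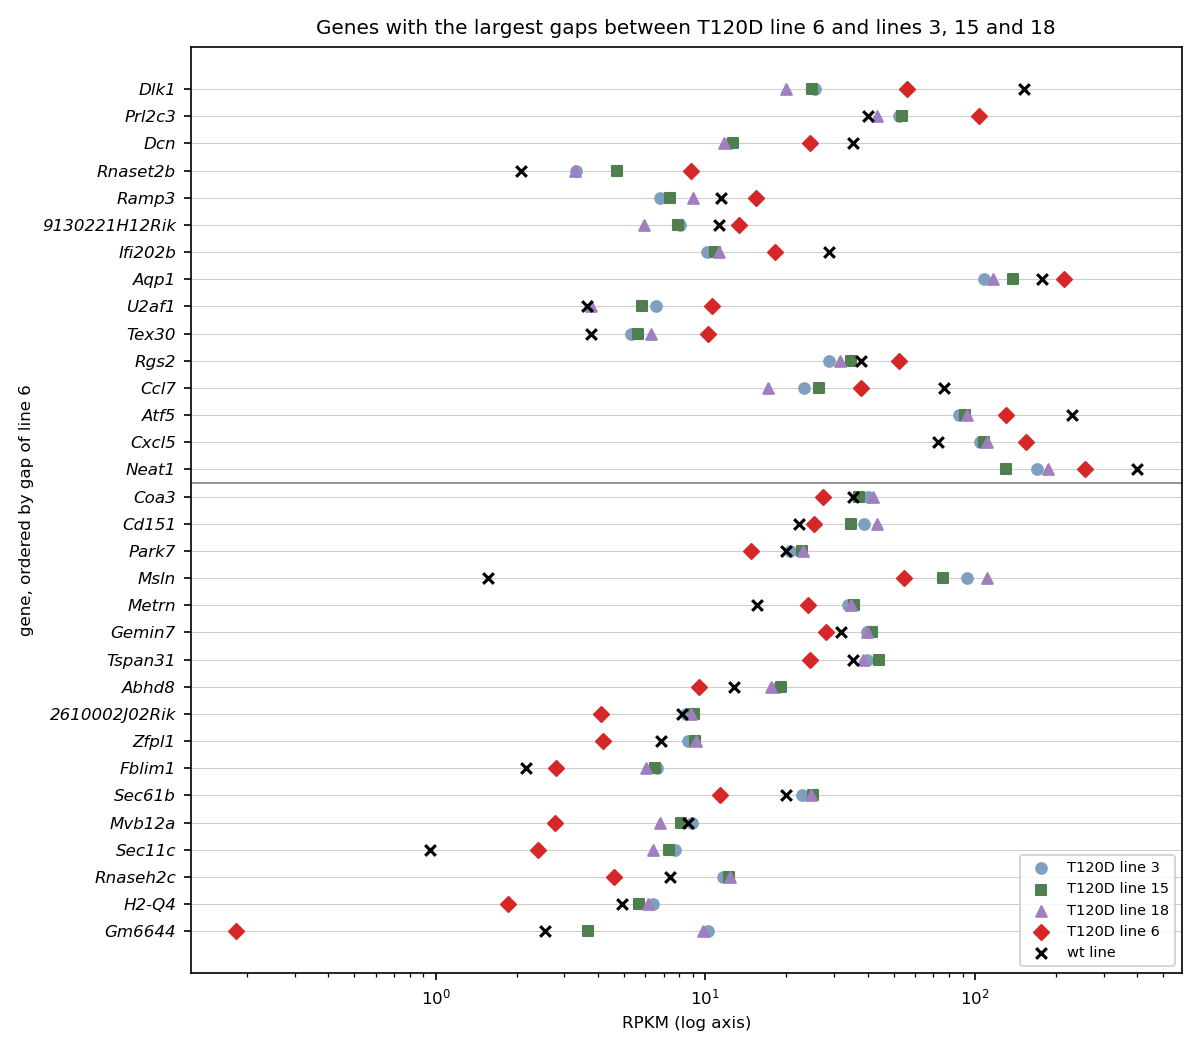
RPKM (log axis) of the 32 genes with the widest gaps, ordered from the highest gap of line 6 (Dlk1) to the lowest (Gm6644). Each mark is 1 line. Red diamonds (line 6) lie to the right of the marks of lines 3, 15 and 18 for the upper 15 genes and to their left for the lower 17, and crosses show the wt line.

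Dlk1 had the widest gap above the range. It encodes a transmembrane protein related to Notch ligands that restrains adipocyte formation, and it is expressed from the paternal copy of an imprinted region. Dlk1 was at 55.98 RPKM in line 6, at 25.5, 24.8 and 19.9 RPKM in lines 3, 15 and 18, and at 152 RPKM in wt. Line 6 stood apart from the other T120D lines, which lay close together, and wt was higher still. The level in line 6 was 2.39 times the mean of the other 3 lines, 23.4 ± 3.08 RPKM (SD, n = 3).

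Among matrix genes, line 6 also lay between the other T120D lines and wt for Dcn and Thbs2. Dcn, which encodes decorin, a small proteoglycan that binds collagen fibrils, was at 24.5 RPKM in line 6, at 12.4, 12.7 and 11.7 RPKM in lines 3, 15 and 18, and at 35.2 RPKM in wt. Thbs2, which encodes thrombospondin 2, a secreted inhibitor of blood vessel growth, was at 18.8 RPKM in line 6, at 11.6, 11.99 and 11.5 RPKM in lines 3, 15 and 18, and at 43.2 RPKM in wt. For both genes the 3 other lines differed by little, line 6 was above them and wt was above line 6. The ratio of line 6 to the mean of the others was 1.996 for Dcn and 1.61 for Thbs2. The counting interval of the Thbs2 ratio, an exact conditional binomial interval at 95% from estimated reads that covers counting error only, was 1.39 to 1.85.

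Of the remaining higher genes of the matrix list, none reached 1.5-fold. Its 57 genes included 37 that passed the filter, of which line 6 was above the range for 14 (37.8%) and below it for 8 (21.6%), with a median difference from the mean of the other lines of 0.07 against -0.01 over all 5977 genes. Without line 18 the median of the list was 0.02. Collagen genes were among those with narrow gaps. Col1a2, a chain of type I collagen, was at 274 RPKM in line 6 against 231 to 243 in the other 3 and at 334 RPKM in wt, and was picked as an example after its value was seen, as were the other list members named below that are not among the 32.

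Prl2c3 came next after Dlk1. It belongs to the proliferins, secreted relatives of prolactin that growth factors and serum induce in 3T3 cells. Prl2c3 was at 104 RPKM in line 6, at 52.1, 53.6 and 43.5 RPKM in lines 3, 15 and 18, and at 40.1 RPKM in wt. Line 6 was 2.09 times the mean of the other T120D lines (counting interval 1.76 to 2.47), and wt lay below all 4. The other proliferins with values over the filter followed in line 6 with smaller gaps. Prl2c2 was at 158 RPKM in line 6, at 113, 121 and 89.8 RPKM in lines 3, 15 and 18, and at 168 RPKM in wt. Prl2c4 was at 50.1 RPKM in line 6, at 30.1, 35.7 and 40.2 RPKM in lines 3, 15 and 18, and at 103 RPKM in wt. In wt both were above every T120D line. Prl2c5 was listed at 0 in all 4 T120D lines and at 0.528 RPKM in wt. The Prl2c2 and Prl2c3 transcripts are 97.8% identical and those of Prl2c3 and Prl2c5 94.98% in GENCODE M21, and in the RefSeq annotation of GRCm38 Prl2c4 is a synonym of Prl2c3, so the split of reads between members is uncertain. The sum over Prl2c2, Prl2c3 and Prl2c4 depends less on that split. It was 312 RPKM in line 6, 195, 210.1 and 173 RPKM in lines 3, 15 and 18, and 312 RPKM in wt. By the sum, line 6 was above the other 3 T120D lines and at the level of wt.

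The start regions of Prl2c3 and Prl2c5 are shown because Prl2c3 was abundant in the T120D lines and Prl2c5 was listed at 0 there, while their sequences are nearly the same. Each is the 250 bases before the annotated start in RefSeq, build GRCm38.p6, 5′ to 3′ on the gene's strand. Capitals mark matches to TGANTCA, the core of the site bound by AP-1 factors, and to TATATAA, a motif of core promoters near the start of transcription.
Prl2c3 (chr13:12800080-12800329, minus strand): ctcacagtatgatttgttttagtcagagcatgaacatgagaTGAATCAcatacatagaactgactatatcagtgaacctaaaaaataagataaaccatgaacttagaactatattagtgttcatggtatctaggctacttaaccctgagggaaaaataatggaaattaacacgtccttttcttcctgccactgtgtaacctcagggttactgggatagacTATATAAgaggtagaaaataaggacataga
Prl2c5 (chr13:13182466-13182715, plus strand): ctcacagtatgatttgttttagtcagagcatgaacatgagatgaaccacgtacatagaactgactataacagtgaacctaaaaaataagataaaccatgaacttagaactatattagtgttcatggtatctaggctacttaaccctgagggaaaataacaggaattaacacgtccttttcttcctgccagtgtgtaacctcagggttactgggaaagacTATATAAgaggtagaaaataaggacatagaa
The 2 windows are identical at 241 of 251 aligned positions (96.02%). The Prl2c3 window holds 1 match to TGANTCA, which starts 209 bases before the start, and the Prl2c5 window holds 0. The TATATAA match starts 30 bases before the start in Prl2c3 and 31 bases before it in Prl2c5. Searched on both strands over the same window of 27025 genes, TGANTCA occurred in 6.87% and TATATAA in 3.26%. These matches describe the letters only and say nothing of binding in any line.

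Aqp1, the water channel aquaporin 1, was the most abundant of the genes at least 1.5-fold above the range, at 214 RPKM in line 6, at 108, 138 and 117 RPKM in lines 3, 15 and 18, and at 177 RPKM in wt. Line 6 exceeded every other line including wt, at 1.77 times the mean of the other T120D lines (counting interval 1.66 to 1.89). Ramp3, which pairs with the calcitonin receptor-like receptor to form an adrenomedullin receptor, was at 15.4 RPKM in line 6, at 6.801, 7.38 and 9.02 RPKM in lines 3, 15 and 18, and at 11.4 RPKM in wt. Rgs2, an inhibitor of signalling by Gq proteins, was at 52.3 RPKM in line 6, at 28.6, 34.7 and 31.7 RPKM in lines 3, 15 and 18, and at 37.9 RPKM in wt. In these 3 genes line 6 was the highest of all 5 lines and wt came next.

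Atf5, a transcription factor gene translated under stress, was at 131 RPKM in line 6, at 87.3, 91.5 and 93.6 RPKM in lines 3, 15 and 18, and at 228 RPKM in wt. Neat1, the long non-coding RNA on which paraspeckles form, was at 257 RPKM in line 6, at 169, 131 and 187 RPKM in lines 3, 15 and 18, and at 399 RPKM in wt. Line 6 again lay between the other T120D lines and wt. Ifi202b, an interferon-inducible gene of the p200 family whose members are similar in sequence, was at 18.1 RPKM in line 6, at 10.1, 10.9 and 11.2 RPKM in lines 3, 15 and 18, and at 28.8 RPKM in wt. As for Atf5 and Neat1, line 6 lay between the other T120D lines and wt for Ifi202b.

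The other genes with wide gaps above the range were of low abundance. Rnaset2b, a ribonuclease T2 gene, was at 8.86 RPKM in line 6 against 3.27 to 4.696 in the other 3, and its copy Rnaset2a showed the opposite, 1.42 RPKM in line 6 against 2.67 to 3.65 in the other 3. The transcripts of these 2 genes are 99.05% identical, so the reads may have been divided between them. Their sum was 10.3 RPKM in line 6 and 5.99 to 7.95 in the other T120D lines, and line 6 was still the highest. U2af1, which encodes the splicing factor subunit that reads the end of introns, was at 10.6 RPKM in line 6 against 3.77 to 6.54 in the other 3. Tex30 was at 10.2 RPKM in line 6 against 5.31 to 6.301 in the other 3. The antisense transcript 9130221H12Rik was at 13.3 RPKM in line 6 against 5.94 to 8.03 in the other 3. Whether reads were counted by strand is not given, so reads of the opposite gene may be included. For Rnaset2b, U2af1 and Tex30 the wt line was below the range of lines 3, 15 and 18, at 2.08, 3.64 and 3.77 RPKM. For 9130221H12Rik wt was above that range, at 11.2 RPKM.

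Gm6644 had the widest gap below the range. It was at 0.181 RPKM in line 6, at 10.3, 3.69 and 9.83 RPKM in lines 3, 15 and 18, and at 2.55 RPKM in wt. The value in line 6 stands for under 1 estimated read, and lines 3, 15 and 18 differed widely from each other. Gm6644 is a processed pseudogene in the annotation, so its reads can belong to a parent gene, and no fold is given.

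Sec61b, a subunit of the channel through which new proteins enter the endoplasmic reticulum, was at 11.4 RPKM in line 6, at 22.9, 25.2 and 24.8 RPKM in lines 3, 15 and 18, and at 19.9 RPKM in wt. Line 6 was 2.14-fold below the mean of the others, which were within a narrow range, and wt was between. The value in line 6 rests on an estimated 17 reads, and the counting interval of the ratio of line 6 to the others was 0.257 to 0.768. Sec11c, a catalytic subunit of the signal peptidase, was at 2.398 RPKM in line 6, at 7.704, 7.32 and 6.41 RPKM in lines 3, 15 and 18, and at 0.953 RPKM in wt. Here wt was lower than line 6. Zfpl1, a Golgi membrane protein gene, was at 4.19 RPKM in line 6 against 8.65 to 9.23 in the other 3. Mvb12a, a component of the ESCRT-I complex that sorts membrane proteins to the lysosome, was at 2.78 RPKM in line 6 against 6.79 to 8.94 in the other 3. The wt line was at 6.84 RPKM for Zfpl1 and at 8.63 for Mvb12a, below the range of lines 3, 15 and 18 for the first and within it for the second.

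Rnaseh2c, a subunit of the enzyme that removes ribonucleotides from DNA, was at 4.57 RPKM in line 6, at 11.6, 12.2 and 12.3 RPKM in lines 3, 15 and 18, and at 7.38 RPKM in wt. Line 6 was 2.64-fold below the mean of lines 3, 15 and 18, 12.1 ± 0.378 RPKM (SD, n = 3). H2-Q4, a non-classical MHC class I gene, was at 1.85 RPKM in line 6 against 5.66 to 6.396 in the other 3, a value that is uncertain because class I genes share sequence. Fblim1, which encodes migfilin, a linker of filamin to cell-matrix junctions, was at 2.78 RPKM in line 6 against 6.05 to 6.61 in the other 3. Abhd8 was at 9.49 RPKM in line 6 against 17.6 to 19.1 in the other 3, and 2610002J02Rik, now named Faap20 and a member of the Fanconi anaemia pathway of DNA repair, was at 4.12 RPKM in line 6 against 8.45 to 9.08 in the other 3. These 5 genes were picked because line 6 lay below the range, and wt was lower than line 6 for Fblim1 only.

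Among abundant genes, Msln, which encodes the surface protein mesothelin, was at 54.6 RPKM in line 6, at 93.5, 76.2 and 111 RPKM in lines 3, 15 and 18, and at 1.56 RPKM in wt. Line 6 had the lowest level of the T120D lines and stayed far above wt. Tspan31, a tetraspanin gene, was at 24.4 RPKM in line 6 against 38.4 to 44.1 in the other 3. Cd151, which encodes a tetraspanin that binds integrins, was at 25.3 RPKM in line 6 against 34.7 to 43.4 in the other 3. Metrn, which encodes the secreted factor meteorin, was at 24.1 RPKM in line 6 against 33.9 to 35.6 in the other 3 and at 15.6 RPKM in wt. Gemin7, of the complex that assembles spliceosomal particles, was at 28.1 RPKM in line 6 against 39.8 to 41.4 in the other 3. Park7, an antioxidant chaperone gene, was at 14.7 RPKM in line 6 against 20.6 to 23.1 in the other 3, and Coa3, an assembly factor of cytochrome c oxidase, at 27.3 RPKM in line 6 against 37.1 to 41.8 in the other 3. The gaps of these 7 genes ran from -0.63 (Tspan31) to -0.43 (Coa3).

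The estimated counting interval of the ratio of line 6 to the other 3 lines excluded 1 for all 32 genes, 15 above and 17 below. The intervals are approximate for genes with several transcripts. The genes were picked for their gaps in these same values, so the choice favoured intervals that exclude 1. The count of such intervals is therefore no support for the differences. The intervals cover counting error only and do not measure how far repeat cultures of line 6 would differ.

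Gene lists were described by how many members lay outside the range. Over all 5977 genes line 6 was above for 25.1% and below for 28.6%, with a median difference of -0.01 from the mean of the other lines. Counts are over the members that passed the filter. In RNA from whole cultures, fewer cells of a kind and less RNA per cell cannot be told apart.

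Chemokine and cytokine genes were the list with the highest share above the range among those with at least 10 genes over the filter. Of 29 listed genes 12 passed the filter, and line 6 was above the range for 9 (75.0%) and below it for 0, with a median difference of 0.41. With no filter on low values the median was 0.17. Ccl7, a chemokine that attracts monocytes, was at 37.9 RPKM in line 6, at 23.3, 26.3 and 17.1 RPKM in lines 3, 15 and 18, and at 76.6 RPKM in wt. Its neighbour in function, Ccl2, was at 73.3 RPKM in line 6, at 59.4, 37.3 and 42.9 RPKM in lines 3, 15 and 18, and at 99.6 RPKM in wt. For both chemokines line 6 lay between the other T120D lines and wt. Csf1, the growth factor of macrophages, was at 130.4 RPKM in line 6, at 99.5, 90.1 and 80.5 RPKM in lines 3, 15 and 18, and at 109.9 RPKM in wt. Cxcl5, a chemokine for neutrophils, was at 155 RPKM in line 6, at 104, 108 and 111 RPKM in lines 3, 15 and 18, and at 73.1 RPKM in wt. Cxcl5 was thus higher in line 6 while wt was below all T120D lines, and the IL-33 receptor gene Il1rl1 showed the same, at 277 RPKM in line 6 against 170.5 to 255 in the other 3 and at 99.04 RPKM in wt. The 3 members within the range were Nfkb1, Cxcl1 and Cxcl12. Without the genes of chromosomes 1 and 3, which hold 4 of the 12 members and are described below, line 6 was above for 6 of 8 with a median of 0.30.

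Contractile genes were more often below the range than above it. Of 29 listed genes 21 passed the filter, and line 6 was below the range for 10 (47.6%) and above it for 2 (9.52%), with a median difference of -0.08. This median was -0.04 without line 15, -0.12 without line 18 and -0.14 without the genes of chromosomes 1 and 3. None reached a gap of 1.5-fold. Tagln, an actin-binding protein of smooth muscle, was at 32.1 RPKM in line 6, at 54.4, 59.2 and 35.9 RPKM in lines 3, 15 and 18, and at 10.4 RPKM in wt. Vcl, which encodes vinculin of focal adhesions, was at 40.5 RPKM in line 6, at 53.5, 55.1 and 58.4 RPKM in lines 3, 15 and 18, and at 30.9 RPKM in wt. The tropomyosin gene Tpm1 was at 104 RPKM in line 6 against 127 to 131 in the other 3 and at 55.8 RPKM in wt. In all 3 genes line 6 lay between the other T120D lines and wt. Over the list, wt was below the range of lines 3, 15 and 18 for 20 of 21 genes, so nearly any gene of this list that is lower in line 6 lies on the side of wt. The member that went furthest the other way was Tagln2, at 248 RPKM in line 6 against 190.3 to 202 in the other 3, a gene of chromosome 1.

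**Figure D2:**
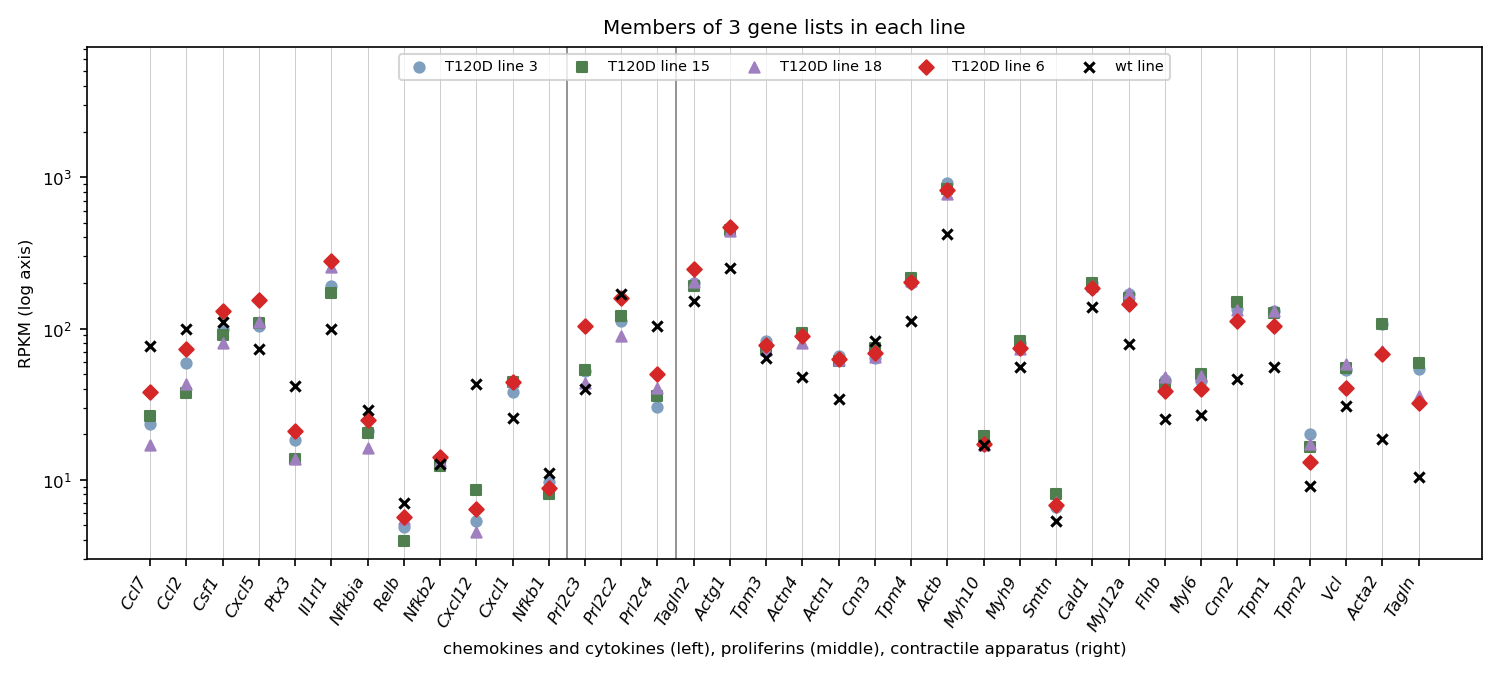
RPKM (log axis) in each line of the genes of 3 lists that passed the filter: 12 chemokine and cytokine genes, 3 proliferins and 21 genes of the contractile apparatus, each list ordered by the difference of line 6 from the mean of lines 3, 15 and 18. Line 6 (red diamonds) is highest of the T120D lines for 9 of the 12 chemokine and cytokine genes and for the 3 proliferins, and lowest for 10 of the 21 contractile genes.

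Targets of YAP and SRF, which report on actin tension, also had more members below than above: 8 of 19 (42.1%) against 3 (15.8%), with a median of -0.07. The median was -0.04 without line 15 or with no filter, and -0.12 without line 18. Lats2, a kinase that restrains YAP and is itself a YAP target, was at 9.603 RPKM in line 6, at 15.8, 14.3 and 14.9 RPKM in lines 3, 15 and 18, and at 4.95 RPKM in wt. Line 6 was the lowest T120D line, and wt was lower. Since wt was below the range of lines 3, 15 and 18 for 16 of the 19 genes, most lower genes of this list would lie on its side. The 3 members above the range, Fhl2, Nuak2 and Ptpn14, all lie on chromosome 1.

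Genes of protein folding in the endoplasmic reticulum had the highest share below the range among the lists with at least 10 genes over the filter. Of 24 such genes line 6 was below for 14 (58.3%) and above for 2 (8.33%), with a median of -0.10. Besides Sec61b, Manf, a secreted stress protein of this compartment, was at 14.7 RPKM in line 6, at 19.5, 25.4 and 19.1 RPKM in lines 3, 15 and 18, and at 9.64 RPKM in wt. Dnajb11, a co-chaperone of BiP, was at 17.7 RPKM in line 6, at 21.9, 21.6 and 21.6 RPKM in lines 3, 15 and 18, and at 11.9 RPKM in wt. For both, line 6 lay between the other T120D lines and wt. The wt line was below the range of lines 3, 15 and 18 for 18 of the 24 genes. A gene of this list that is lower in line 6 would thus often lie on the side of wt. Lysosome and autophagy genes showed 9 of 23 below (39.1%) and 3 above (13.04%), with a median of -0.08; among members that average 20 RPKM or more it was -0.05. Ctsd, the protease cathepsin D, was at 74.3 RPKM in line 6 against 95.6 to 101 in the other 3, whereas Ctsl, cathepsin L, was at 121 RPKM in line 6 against 93.01 to 99.3 in the other 3. In this list wt was above lines 3, 15 and 18 for 15 of 23 genes.

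Targets of ATF4, the factor of the amino acid response, were above the range for 13 of 27 (48.1%) and below for 2 (7.41%), with a median of 0.12, or 0.06 without line 3. Psat1, an enzyme of serine synthesis, was at 178 RPKM in line 6, at 135, 147 and 155 RPKM in lines 3, 15 and 18, and at 176 RPKM in wt. Chac1, which degrades glutathione, was at 13.4 RPKM in line 6 against 8.82 to 11.1 in the other 3 and at 14.5 RPKM in wt. Line 6 was at or near the level of wt for both. Cytosolic ribosomal proteins were above for 30 of 64 (46.9%) and below for 10 (15.6%), with a median of 0.07, and wt was above lines 3, 15 and 18 for 47 of the 64. The median was 0.04 without line 15 and 0.11 without line 18. Rps2 was at 68.4 RPKM in line 6 against 47.1 to 53.6 in the other 3 and at 56.2 RPKM in wt. Processed pseudogenes of these genes can take up their reads, so values of single ones are uncertain.

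Genes of the TGF-beta family, its regulators and Id factors were above for 9 of 16 (56.2%) and below for 2 (12.5%), with a median of 0.15. The median was 0.07 without line 18, and 0.09 with no filter or without the genes of chromosomes 1 and 3. Id2, an inhibitor of helix-loop-helix factors, was at 25.8 RPKM in line 6, at 19.3, 16.5 and 15.8 RPKM in lines 3, 15 and 18, and at 30.3 RPKM in wt. Tgfbr2, the type II receptor, was at 15.9 RPKM in line 6, at 11.3, 10.5 and 11.7 RPKM in lines 3, 15 and 18, and at 9.37 RPKM in wt. Line 6 was on the side of wt for Id2 and away from it for Tgfbr2. Fstl3, a secreted inhibitor of activin, was the lowest member, at 5.67 RPKM in line 6 against 8.66 to 10.1 in the other 3. Of the 9 imprinted growth genes over the filter, 6 were above and 3 below, which leaves 0 within the range. The median difference was 0.13, and -0.0071 with no filter. Dlk1 and Dcn were the only 2 with a 1.5-fold gap, and Dcn is also counted in the matrix list. Whether the genes of this list are imprinted in these cells was not examined. Igf2, a fetal growth factor gene, was the lowest, at 6.298 RPKM in line 6 and at 11.8, 7.42 and 18.8 RPKM in lines 3, 15 and 18. The other T120D lines were themselves spread over more than 2-fold for Igf2.

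DNA replication genes were above the range for 15 of 33 (45.5%) and below for 5 (15.2%), with a median of 0.07, away from wt, which was below lines 3, 15 and 18 for 26 of 33. Without line 15 this median was 0.12. Genes of G2/M and mitosis did not share that lean: 10 of 39 were above (25.6%) and 13 below (33.3%), with a median of -0.05 that ran from -0.06 to 0.0066 when line 3, 15 or 18 was left out and was -0.09 without the genes of chromosomes 1 and 3. RAS-MAPK and immediate early genes were split, with 13 of 29 above (44.8%) and 9 below (31.03%) and a median of 0.03, which was 0.06 without line 3, 0.02 without line 15 and 0.02 with no filter. Among them Egr1, an early response transcription factor, was at 20.2 RPKM in line 6 against 9.91 to 13.9 in the other 3, Fosl1, an AP-1 factor, at 57.5 RPKM in line 6 against 32.8 to 44.2 in the other 3, and the phosphatase gene Dusp1 at 23.6 RPKM in line 6 against 28.8 to 42.4 in the other 3. Endogenous H2A genes passed the filter for 6 of 23, and line 6 was below the range for 4 and above it for 0, with a median of -0.22. This median was -0.09 at a mean of at least 1 RPKM, -0.06 at a mean of at least 20 RPKM and 0 with no filter. The variant gene H2afy, which encodes macroH2A1, was at 13.9 RPKM in line 6 against 16.6 to 19.97 in the other 3. Poly(A) selection recovers few transcripts of replication-dependent histone genes, and the human transgene was not analysed here.

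**Figure D3:**
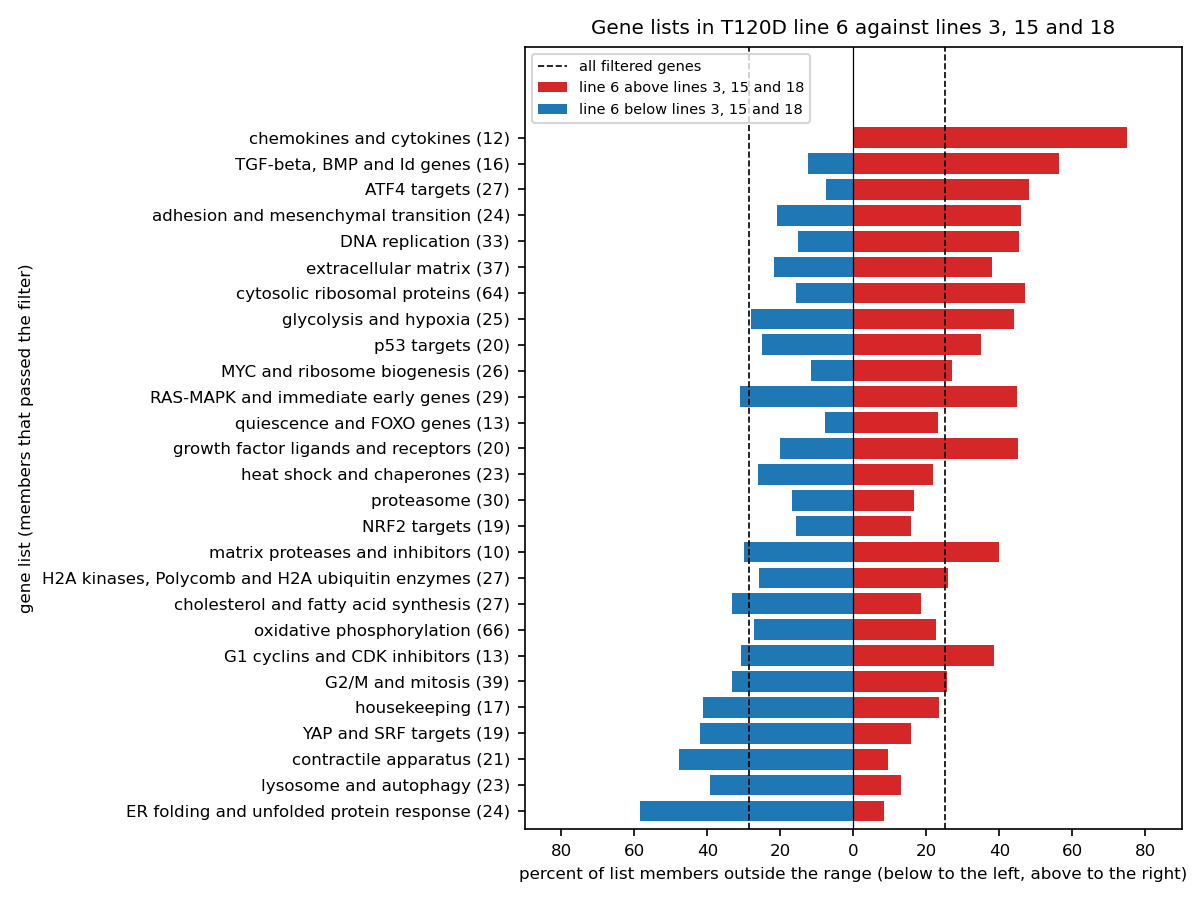
Percent of the genes of each list that lay above (red, to the right) or below (blue, to the left) the range of lines 3, 15 and 18 in line 6, for lists with at least 10 genes over the filter (number in brackets), ordered by median difference. Dashed lines mark the shares over all 5977 genes, 25.1% above and 28.6% below; the chemokine list reaches 75.0% above and the endoplasmic reticulum list 58.3% below.

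The series title links the T120 residue to cyclin D1. Ccnd1, which encodes it, was at 140.4 RPKM in line 6, at 113, 119.7 and 111 RPKM in lines 3, 15 and 18, and at 46.5 RPKM in wt. Line 6 had the highest level, 1.22 times the mean of the other T120D lines (counting interval 1.15 to 1.301), and so lay furthest from wt. Ccne1, the gene of cyclin E1, was at 7.55 RPKM in line 6, at 10.9, 12.7 and 11.8 RPKM in lines 3, 15 and 18, and at 3.94 RPKM in wt. Line 6 had the lowest level of the T120D lines, 1.56-fold below the mean of the others, and was nearer to wt than they were. Ccne2, the gene of cyclin E2, did not pass the filter, at 4.72 RPKM in line 6 and at 4.31, 3.37 and 3.26 RPKM in lines 3, 15 and 18. Ccnd1 and Ccne1 thus placed line 6 at opposite ends of the T120D lines. Of 13 genes for G1 cyclins and CDK inhibitors over the filter, 5 were above the range and 4 below, with a median of -0.03 that ran from -0.07 without line 3 to 0.0015 without line 15 and was 0.06 at a mean of at least 20 RPKM.

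The wt line was not used to pick the genes counted below, which were taken by their gaps in line 6. Other list members named above were chosen after their values were seen. For each gene at least 1.5-fold outside the range in line 6, wt was placed against the range of lines 3, 15 and 18. Over all 5977 genes wt was above that range for 30.7%, below it for 42.9% and within it for 26.5%. Of the 14 genes higher in line 6, wt was above the range for 8 (57.1%), below for 5 and within for 1. Of the 23 lower genes, wt was below for 17 (73.9%), above for 2 and within for 4. The 2 exceptions among the lower genes were Rras and 1190002F15Rik. With genes from a mean of at least 1 RPKM, wt was below for 47 of 83 lower genes (56.6%), and with no filter for 59 of 103 (57.3%).

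Being on the side of wt did not mean being near it. Of the 8 higher genes with wt above, line 6 lay between the other lines and wt for 4, Dlk1, Dcn, Thbs2 and Ifi202b, and beyond wt for 4. Of the 17 lower genes with wt below, line 6 lay between for 4, Sec11c, Fblim1, Mafk and Spire1, and beyond wt for 13. Across all genes outside the range, wt was above for 677 of the 1500 higher genes (45.1%) and below for 490, and below for 1007 of the 1710 lower genes (58.9%) and above for 374. Among the genes that reached 20 RPKM on average the higher genes had wt above for 169 of 407 (41.5%) and below for 171, where wt was above the range for 27.2% of all such genes. The lower genes of that level had wt below for 329 of 465 (70.8%), where it was below for 54.9% of all. The shares on the side of wt were above those over all genes at both levels of expression, and abundant higher genes were split evenly between the side of wt and the other side.

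**Figure D4:**
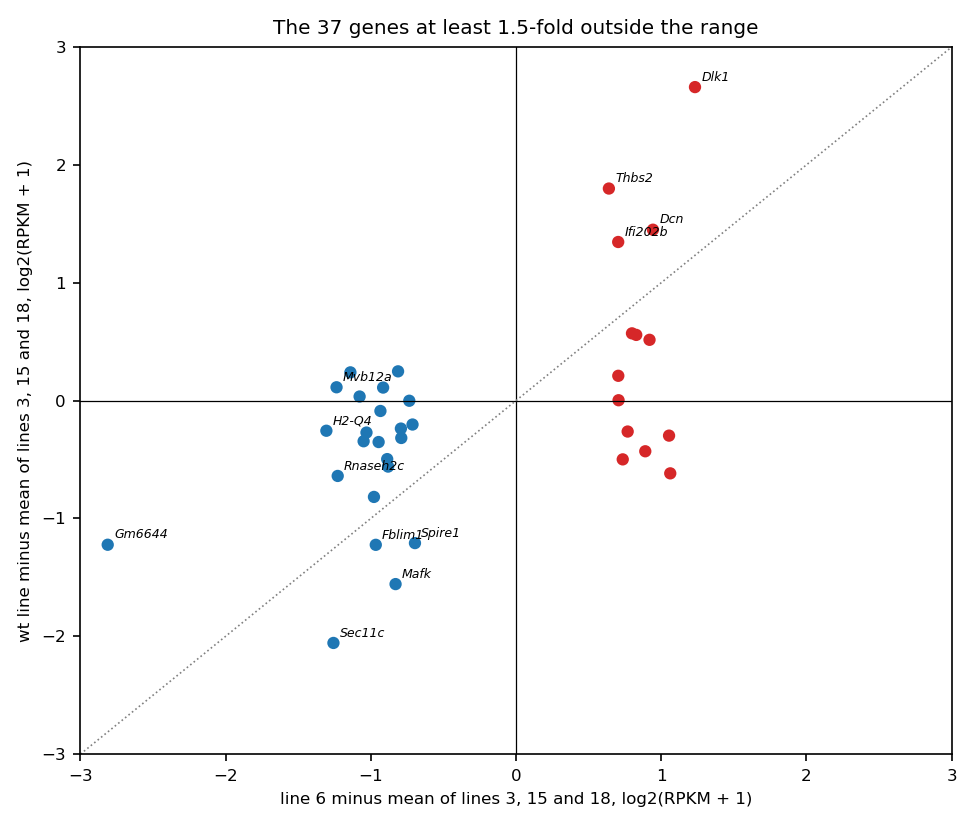
For the 37 genes at least 1.5-fold outside the range, the difference of line 6 (horizontal) and of wt (vertical) from the mean of lines 3, 15 and 18, in log2(RPKM + 1). Red points are the 14 genes higher in line 6 and blue points the 23 lower ones. Dlk1, Thbs2, Dcn and Ifi202b lie above the dotted line of equal differences and Sec11c, Mafk, Fblim1 and Spire1 below it, where wt differed more than line 6.

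Both differences use lines 3, 15 and 18, so an odd value there moves them together. The shares were therefore also taken with genes picked against 2 lines and wt placed against the third alone. With line 3, 15 or 18 held out in this way, wt was above the held-out line for 50.2%, 47.8% and 52.6% of the genes in which line 6 was higher, against 43.8%, 42.5% and 44.8% of all genes. For genes in which line 6 was lower, wt was below the held-out line for 62.5%, 62.6% and 61.7%, against 56.2%, 57.5% and 55.2%. The lean kept its direction in all 3 and was 5.08 to 7.82 percentage points over the background. All 3 runs share the library of line 6, the library of wt and many genes, so they are not independent. No such share is given with another T120D line in the place of line 6, so whether the lean is particular to line 6 was not tested. For genes at least 1.5-fold apart the held-out shares were 64.5%, 57.7% and 52.0% for higher genes, of 31, 26 and 25, and 71.4%, 77.5% and 58.3% for lower genes, of 42, 40 and 48.

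Measured over all 5977 genes, line 6 was the T120D line nearest to wt. Line 6 and wt were at least 2-fold apart for 253 genes, against 320 for line 3, 309 for line 15 and 285 for line 18. The median absolute log2 difference from wt was 0.27 in lines 6 and 18 and 0.29 in lines 3 and 15. By the median, lines 6 and 18 were alike, and the count at 2-fold set line 6 nearer.

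The differences were not spread evenly over the genome. On chromosome 1, line 6 was above the range for 185 of 356 genes (52.0%) and below it for 40 (11.2%), with a median difference of 0.12, or 1.09-fold. All 17 blocks of about 20 neighbouring genes had a positive median, from 0.03 to 0.29. On chromosome 3 line 6 was above for 118 of 299 genes (39.5%) and below for 50 (16.7%), with a median of 0.09, and all 14 blocks were positive. On the other 17 autosomes the median ran from -0.07 to 0.01 and the share above the range from 15.1% to 27.7%. Relative to the mean of the 4 T120D lines, and with each line centred on its median over all autosomal genes, the chromosome 1 median was 0.10 in line 6, -0.04 to -0.03 in lines 3, 15 and 18 and 0.06 in wt. On chromosome 3 it was 0.07 in line 6 and -0.04 to 0.01 in the others, and wt was at 0.12. On both chromosomes line 6 and wt were above lines 3, 15 and 18, with line 6 the higher on chromosome 1 and wt on chromosome 3. Other lines had chromosomes of their own: on chromosome 14 line 18 was at 0.11 and line 6 at -0.05, and on chromosome 18 line 18 was at 0.10 and line 6 at -0.05. DNA content was not measured.

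**Figure D5:**
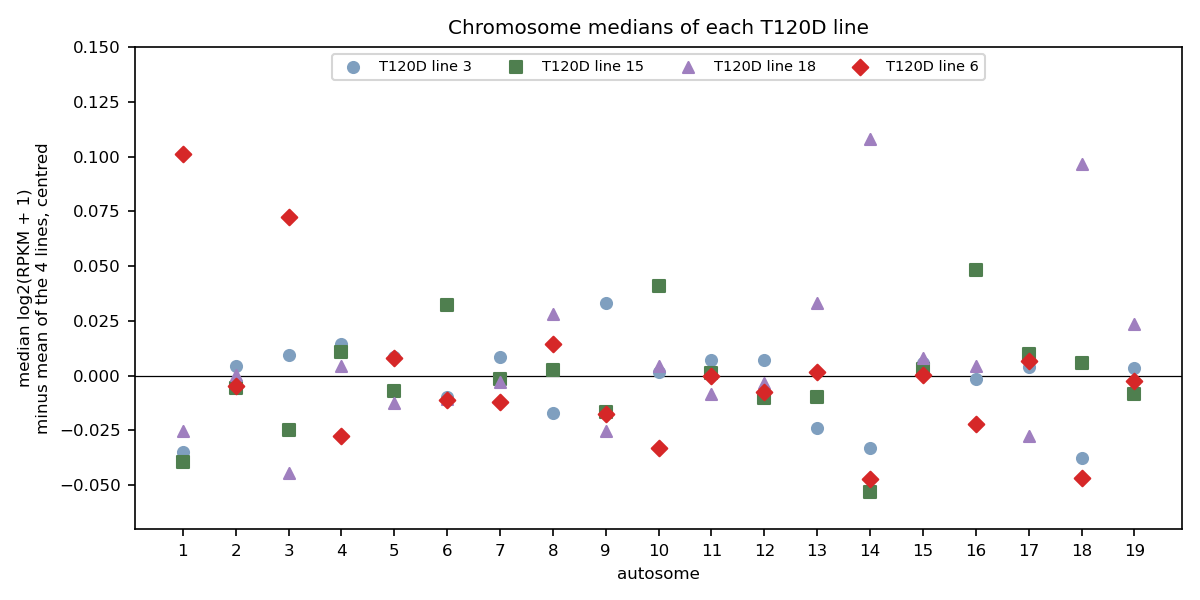
Median over the genes of each autosome of log2(RPKM + 1) minus the mean of the 4 T120D lines, for each T120D line, centred on that line's median over all autosomal genes. Line 6 (red diamonds) stands above the others on chromosomes 1 (0.10) and 3 (0.07), and line 18 on chromosomes 14 (0.11) and 18 (0.10).

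Without chromosomes 1 and 3, line 6 was above the range for 1197 genes and below for 1620, and 11 and 22 genes passed 1.5-fold. The genes Ifi202b, Tex30 and Glul on chromosome 1 were the 3 that left the higher group. Glul, the gene of glutamine synthetase, was at 13.9 RPKM in line 6 against 7.68 to 8.78 in the other 3. The comparison leaves out the X chromosome. There, 16 of 172 genes over the filter were at least 1.5-fold above the range in line 6, more than on any autosome. The 172 X genes were also split into blocks of about 20 neighbours. From Plp2 to C330007P06Rik the median difference from the mean of the other 3 was 0.73 in line 6 and 0.75 in wt. In the next block, from Rpl39 to Mmgt1, it was 0.69 and 0.60. In both blocks line 6 exceeded the highest block median of chromosome 1, 0.29. The remaining X blocks ran from -0.13 to 0.002 in line 6 and from -1.06 to 0.12 in wt. The cause was not tested.

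The median length of the longest transcript was 3021 bases for genes above the range, 3064 for those below and 2991 for those within, and the median GC content was 49.8%, 51.05% and 50.4%. When genes were sorted by GC content into 4 equal groups, line 6 was above for 20.8% and below for 32.5% in the group with the highest GC content, and for 26.6% and 27.3% in the group with the lowest. The part of GC content in the differences was not tested. The 1.5-fold genes were shorter and less abundant than the rest, with a median length of 1758 bases for the 13 higher genes with a length and 1290 bases for the 23 lower ones, against 3017 over all, and a median level of 9.63 and 6.66 RPKM against 11.6. Their median GC content was 51.8% for the higher and 54.8% for the lower genes, against 50.4% over all. Short transcripts of low level have few reads at this depth.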

How the data were processed

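The deposited table of each line gives RPKM, reads normalised by the authors for transcript length and library size, for 14454 gene symbols. The submitters' processing notes name Partek and mm9; which aligner, annotation and strand setting were applied is not given in the sources used here. Chromosome, gene order, transcript length and GC content came from GENCODE M21 and RefSeq on GRCm38, so no gene coordinates are given other than those of the printed start regions; 14390 symbols (99.6%) had a chromosome. RPKM of at least 5 as a mean over the 4 T120D lines and an autosomal position were required, and a pseudocount of 1 RPKM was added before log2. RPKM tables hold no counts. Depth was estimated from single-transcript genes, of which 49.6% to 55.6% fell within 0.05 of a whole number of reads. The median over other depths tried was 6.83% to 7.42%. The share reached is short of nearly all genes, so reads were not recovered and no count test was run. The counting intervals used approximate reads, rounded from RPKM, transcript length and the estimated depth. No fit was made, since line 6 is 1 line chosen from these values. The code was tested on simulated data. Genes named are the 10 highest and 10 lowest gaps, the 8 highest and 8 lowest at a mean of at least 20 RPKM, Ccnd1, Ccne1 and Ccne2, the members of each list with a gap of at least 1.5-fold, up to 2 a side, and their families; other list members were chosen after their values were seen. The members and lists were chosen with earlier results of these data known. Alternatives changed the pseudocount, the filter, the scaling (median, quantile), the X chromosome and the lines compared; leaving out chromosomes 1 and 3 was added after seeing the data. Python 3.11.15, numpy 2.4.6, pandas 2.3.3 and scipy 1.17.1 were used.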

Additional observations from a re-analysis of the deposited data

Results flagged for a closer look

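Among the 4 T120D lines, 115 values named in the report or summarised by chromosome were examined for 1 line far from the other 3, measured as the gap of the highest or lowest line to its neighbour divided by the whole range. A share above Dixon's 95% critical value for 4 samples marks such a value, and chance marks about 1 in 20 groups of values. Genes with wide gaps of line 6 had been picked beforehand, so line 6 was bound to be marked often: 19 of the 24 marks were of line 6. Over all 5977 genes line 6 was marked for 94 (1.57%), line 3 for 85 (1.42%), line 15 for 59 (0.987%) and line 18 for 76 (1.27%). These shares are per line, whereas the 1 in 20 counts a mark of any of the 4 lines.

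With line 6 as the highest line, the share of the range was 0.891 for Dcn, 0.922 for Thbs2, 0.830 for Ifi202b, 0.830 for Atf5, 0.835 for Cxcl5 and 0.846 for Fhl2, and 0.898 for the median of chromosome 1. With line 6 as the lowest line, it was 0.937 for Rnaseh2c, 0.889 for H2-Q4, 0.880 for Sec61b, 0.891 for Fblim1, 0.915 for Zfpl1, 0.906 for 2610002J02Rik, 0.879 for Abhd8, 0.9004 for Gemin7 and 0.880 for Metrn. It was also 0.864 for Tpm1, 0.925 for Dnajb11 and 0.937 for Fv1, a gene that restricts murine leukaemia viruses, which was at 3.48 RPKM in line 6 and 6.60 to 6.88 in the others. The marks of other lines were Cxcl1, lowest in line 3 (0.887), and the chromosome medians of chromosome 6 in line 15 (0.977), chromosome 9 in line 3 (0.853) and chromosomes 14 (0.877) and 17 (0.843) in line 18.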

How the results depend on the processing

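Of 72 recomputed counts and shares, 51 stayed within 1.5 times or within the counting interval of the value reported. At a mean of at least 1 RPKM line 6 was above the range for 2414 genes and below for 2652, with 45 and 83 at 1.5-fold. At a mean of at least 20 RPKM these were 407, 465, 3 and 2, with wt on the side of line 6 for 100% of the 2 lower genes, against 56.6% of 83 at 1 RPKM and 57.3% of 103 without a filter. Without a filter they were 3062, 3185, 88 and 103. With a pseudocount of 0.1 RPKM, 36 genes were at least 1.5-fold below, and with X chromosome genes 30 were at least 1.5-fold above. Leaving out 1 of lines 3, 15 and 18 gave 25 to 31 genes above and 40 to 48 below at 1.5-fold, as a range over fewer lines is narrower: 31 and 42 without line 3, 26 and 40 without line 15, 25 and 48 without line 18. With median scaling line 6 was above for 1652 and below for 1596 genes. Of the alternatives only the scalings can turn the side of a gap, since a pseudocount keeps the order of lines and fewer lines only narrow the range. Under both scalings 39 of 40 named genes kept their side. The exception was Prl2c5, whose reported gap was 0 and whose gap reached 0.002 under scaling. Of 339 recomputed list medians 32 changed sign, in 15 lists whose reported medians were at most 0.13 in size, among them G1 cyclins and CDK inhibitors (0.064 at a mean of at least 20 RPKM) and imprinted growth genes (-0.0071 without a filter). The reported median exceeded the spread of lines 3, 15 and 18 in 3 of these changes, G2/M and mitosis at a mean of at least 20 RPKM (0.035) and without line 15 (0.0066; -0.063 to 0.0066 over the 3 lines left out), and glycolysis and hypoxia without line 15 (-0.0087; -0.0087 to 0.066). Of 171 recomputed chromosome medians 13 changed sign, in 6 chromosomes within 0.01 of 0, among them chromosome 15 under median scaling (0.0023). The cause of these changes was not tested. Without chromosomes 1 and 3, wt was on the side of line 6 for 63.6% of higher and 72.7% of lower 1.5-fold genes. No paired analysis was possible because the wt line and the T120D lines share no replicate numbers and no test was made. Depth limits the genes of few reads, which most of the lower 1.5-fold genes are.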

Other observations

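Some members of lists not described above stood outside the range in line 6; they were chosen after their values were seen. Psmb3, a beta subunit of the proteasome, was at 22.7 RPKM in line 6 and 12.5 to 15.9 in the other T120D lines, while 20 of the 30 proteasome genes over the filter lay within the range. Adm, the gene of the peptide adrenomedullin, whose receptor can contain Ramp3, was at 12.6 RPKM in line 6 and 19.3 to 23.4 in the others, with 13.8 RPKM in wt, whereas Ramp3 was above the range. Gsto1, a glutathione transferase gene, was at 95.7 RPKM in line 6 and 124 to 146 in the others, with 37.6 in wt. Its list, NRF2 targets, had 3 of 19 genes above the range and 3 below (15.8% each), with a median difference of -0.01. Over all genes these shares were 25.1% and 28.6%.

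Pdk4, a kinase that restrains pyruvate dehydrogenase and is raised in fasting and quiescence, was at 18.7 RPKM in line 6, 10.01 to 14.7 in the other T120D lines and 34.0 in wt. Of the 13 quiescence and FOXO genes over the filter, 3 were above the range (23.1%) and 1 below (7.69%), with a median difference of 0.02. The share above was near the 25.1% over all genes. Rras, which encodes a RAS-related GTPase, was at 4.68 RPKM in line 6, 7.94 to 10.3 in the other T120D lines and 10.9 in wt, away from wt. The 3 Hox genes over the filter were all below the range in line 6, with a median difference of -0.25, which was -0.16 without line 15 and -0.08 over the 27 Hox genes in the files with no filter.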
